A study of Homo sapiens with 6 samples.

Results

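The integrins and laminins of LOX-IMVI melanoma cells were examined, that is, the receptors by which cells hold on to the extracellular matrix and a main group of their ligands. The members are the protein-coding genes named ITGA or ITGB and LAMA, LAMB or LAMC in the files, 38 of 47432 genes in all. The rule that picks them uses gene names and no measured value, but it was chosen with earlier results of these data known. Of the members, 26 are integrins (18 α and 8 β chains) and 12 are laminins (5 α, 4 β and 3 γ chains). LOX-IMVI is an established human melanoma line, and its cells had been transduced with pLKO.1, a lentiviral vector for short hairpin RNAs (shRNA), and selected with puromycin. The control group (shCtrl) carried the control vector, and the second group (shNFKBIZ) a hairpin against NFKBIZ, the gene of the nuclear co-regulator IκBζ, so that both groups share the vector and the selection. RNA-seq of 3 libraries per group asked which transcripts depend on IκBζ. A single hairpin was used, so effects of IκBζ loss and effects of that hairpin on other transcripts cannot be told apart. The labels do not say whether the libraries came from separate transductions, and P values measure the spread between these libraries.

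An integrin is a pair of one α and one β chain that spans the cell membrane. Outside the cell it binds matrix proteins, and inside it is tied to actin through talin, kindlin and other adaptor proteins. Which ligand is bound depends mainly on the α chain: some α chains read laminin, some collagen, and others the RGD motif of fibronectin and related proteins. A laminin is a trimer of one α, one β and one γ chain, and laminins form the sheet of basement membranes, to which α3β1, α6β1 and α6β4 integrins attach. In melanoma, integrins are known for their part in the adhesion, invasion and survival of tumor cells.

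Each library held 22264473 to 24624839 total exon reads, and the first principal component, with 72.6% of the variance, separated the groups. The targeted gene was checked first. NFKBIZ was at 41.4, 42.9 and 49.2 TPM (a level scaled to gene length and to the library total) in shCtrl and at 13.7, 14.1 and 13.3 TPM in shNFKBIZ, a log2 fold change of -1.78 (edgeR quasi-likelihood test, adjusted P 7.2e-17, SE 0.0581). Of 8 melanocyte lineage markers, MITF alone reached 1 TPM and 3 had no reads, while 3 of 4 markers of dedifferentiated melanoma (AXL, SOX9 and WNT5A) did, with summed levels of 545.0 to 585.4 TPM in shCtrl and 597.6 to 609.0 TPM in shNFKBIZ. The label of melanoma cells therefore rests here on dedifferentiation markers, which other cell types also express. Among markers of other cells, the 7 leukocyte markers summed to 5.94 to 6.64 TPM in shCtrl and 2.41 to 3.07 TPM in shNFKBIZ, with CORO1A and LCP1 above 1 TPM and 2 markers without reads. The 4 endothelial markers each stayed below 1 TPM.

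Of the 38 members, 23 (14 integrins and 9 laminins) had enough reads to be tested, and 17 reached a mean of 1 TPM in at least one group. Because bulk RNA was measured, fewer cells that express a gene and less RNA per cell cannot be told apart. To show the DNA next to the start of members that moved, the 250 bases before the start are printed for 4 abundant members whose RefSeq start is the gene start in the files: ITGA5, the most reduced of the abundant receptors, ITGB5 and LAMB3, the β chains of each family with the largest rise among the abundant members, and LAMC1, the main γ chain. They are from RefSeq on GRCh38.p14, written 5′ to 3′ on the strand of the gene, at chr12:54419267-54419516 (minus strand) for ITGA5, chr3:124901419-124901668 (minus strand) for ITGB5, chr1:209652426-209652675 (minus strand) for LAMB3 and chr1:183023170-183023419 (plus strand) for LAMC1. Capitals mark matches to the NF-κB motif.
ITGA5: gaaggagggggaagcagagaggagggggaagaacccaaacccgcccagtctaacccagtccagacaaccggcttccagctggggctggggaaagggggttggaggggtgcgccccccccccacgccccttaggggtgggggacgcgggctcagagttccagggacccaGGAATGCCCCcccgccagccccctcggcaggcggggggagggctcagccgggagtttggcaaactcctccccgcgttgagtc
ITGB5: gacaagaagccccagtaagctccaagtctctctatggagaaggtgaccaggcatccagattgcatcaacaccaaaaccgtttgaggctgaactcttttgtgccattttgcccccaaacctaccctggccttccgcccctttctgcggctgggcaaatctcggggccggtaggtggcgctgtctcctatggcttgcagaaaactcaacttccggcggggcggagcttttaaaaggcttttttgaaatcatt
LAMB3: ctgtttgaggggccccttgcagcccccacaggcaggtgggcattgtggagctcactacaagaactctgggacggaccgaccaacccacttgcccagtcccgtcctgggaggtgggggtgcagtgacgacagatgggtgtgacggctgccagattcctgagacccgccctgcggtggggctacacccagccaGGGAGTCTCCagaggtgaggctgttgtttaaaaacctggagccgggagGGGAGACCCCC
LAMC1: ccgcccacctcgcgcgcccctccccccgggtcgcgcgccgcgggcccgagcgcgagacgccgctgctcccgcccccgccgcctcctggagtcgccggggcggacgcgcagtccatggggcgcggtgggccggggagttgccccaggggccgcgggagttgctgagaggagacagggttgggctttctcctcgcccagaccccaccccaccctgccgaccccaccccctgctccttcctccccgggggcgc

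RefSeq windows of 300 bases, 250 before and 50 after the start, were matched by symbol for 26 members. The NF-κB motif (either strand, overlaps allowed) was found in 8 of them, or 30.8%, and in 11.3% of all 35116 windows. The 8 were ITGA1, ITGA5, ITGA10, ITGA11, ITGB1, ITGB8, LAMB1 and LAMB3. Of these, ITGA1, ITGA5 and ITGA10 had lower exon reads in shNFKBIZ, ITGB1, ITGB8, LAMB1 and LAMB3 had higher ones, and ITGA11 could not be tested, so members with the letters were found in both directions. The AP-1 motif TGANTCA was found in 2 of 26 windows (7.69%; 7.71% of all windows), those of ITGA5, where it spans the start, and LAMA3. The STAT motif TTCNNNGAA was found in 2 (7.69%; 7.66% of all windows), those of ITGAE and LAMB2. The windows of ITGB1 and LAMA3 lie 47562 and 183567 bases inside the gene as the files give it, at the start of another transcript. A match says only that these letters are in the window.

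The integrin transcripts moved in both directions, as did genes in general. Of 14 integrins tested, 5 rose and 7 fell with adjusted P at or under 0.05, and 1 rose and 2 fell past the full threshold, which also asks for a 2-fold change. Of all 13843 genes tested, 32.5% rose and 32.8% fell by adjusted P alone, and 3.84% rose and 5.12% fell past the full threshold. The median log2 fold change of the integrins was -0.12, against 0.00431 for all genes. Laminins moved in one direction: 6 of 9 rose by adjusted P, 2 of them past the threshold, and their median was 0.32. None of the laminins fell by edgeR or DESeq2, and at an unadjusted P under 0.05 the number lower was 0 as well. TPM of the groups did not overlap for 18 of the 23 members tested, and for 69.5% of all genes tested.

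**Figure D1:**
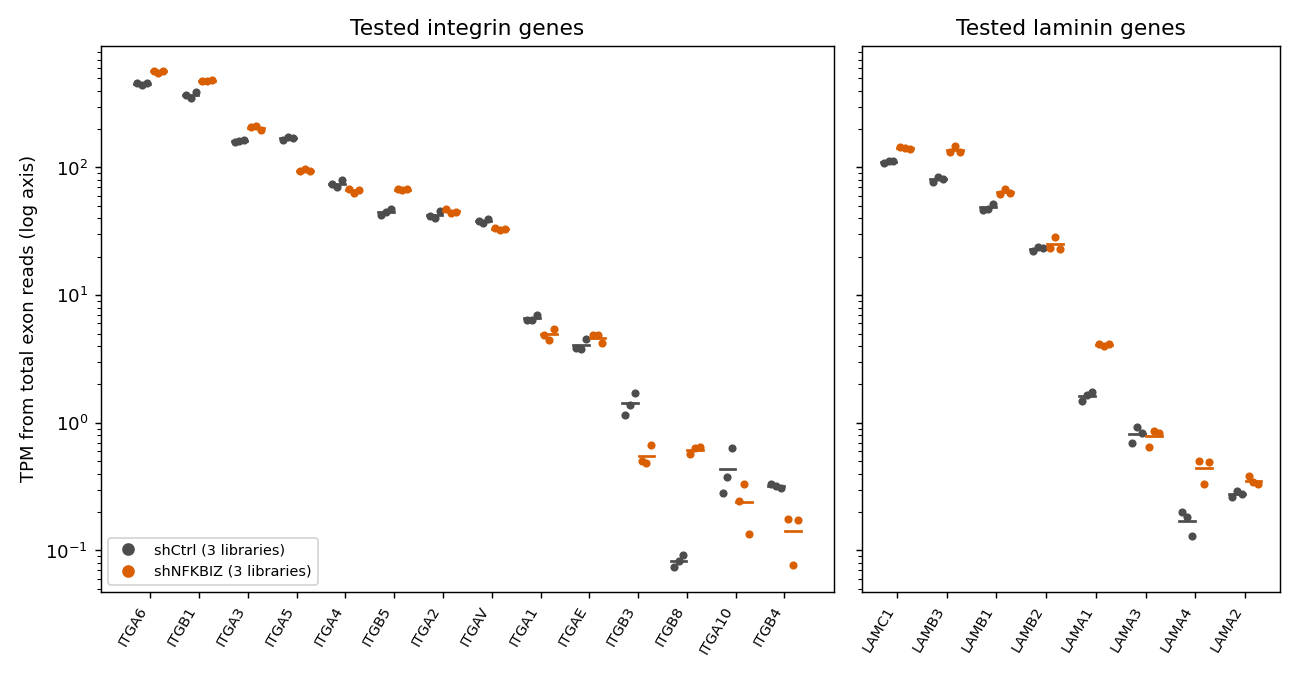
TPM of the tested integrins (left) and laminins (right) reported here, on a log axis, with 1 point per library (dark, shCtrl; orange, shNFKBIZ; 3 libraries each) and a line at the group mean. ITGA6 and ITGB1 lie highest among integrins and LAMC1 and LAMB3 among laminins, while LAMA1 and the other laminin α chains stay below 5 TPM.

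Both laminin-binding α chains that could be tested rose slightly, and ITGA6 had the highest TPM of all integrins. TPM divides reads by the annotated exon length of a gene, and this rank depends on it. ITGB1 had more reads than ITGA6 (33190 against 18963 in shCtrl replicate 1) over a longer exon length (14561 against 6679 bases). ITGA6 (chromosome 2, 172427354 to 172506459), the α chain of α6β1 and α6β4, was at 456.7, 443.6 and 458.2 TPM in shCtrl and at 571.1, 553.5 and 572.7 TPM in shNFKBIZ. ITGA3 (chromosome 17, 50055968 to 50090481), the α chain of α3β1, was at 159.8, 162.1 and 164.8 TPM in shCtrl and at 208, 209.7 and 196.8 TPM in shNFKBIZ. The groups did not overlap for either gene. The log2 fold change was 0.24 for ITGA6 (edgeR adjusted P 2e-06, SE 0.0337) and 0.25 for ITGA3 (edgeR adjusted P 5.21e-07, SE 0.0325). The third laminin-binding α chain, ITGA7, had 11 summed reads in shCtrl, against 14 in shNFKBIZ, and was not tested.

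Both RGD-binding α chains that could be tested fell. ITGA5 (ENSG00000161638, chromosome 12, 54395261 to 54419266), whose product pairs with the β1 chain as the classic fibronectin receptor, was at 163.6, 174.9 and 171 TPM in shCtrl and at 94.1, 97.0 and 93.1 TPM in shNFKBIZ. Every shNFKBIZ library lay well below every shCtrl library. The log2 fold change was -0.92 (edgeR adjusted P 1.12e-15, SE 0.0354), or 1.90-fold lower, just short of the 2-fold limit. ITGAV, the α chain shared by the vitronectin receptors, fell less, from 38.1, 36.7 and 39.5 TPM to 33.8, 32.6 and 32.7 TPM, without overlap (log2 fold change -0.29, edgeR adjusted P 4.85e-07, SE 0.0364). ITGA2B, the platelet chain, had 21 and 7 summed reads, which made a ratio of 0.351 with exact 95% bounds of 0.126 and 0.858, and ITGA8 had none in any library.

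Collagen receptors differed from each other. ITGA2, by far the more abundant, was at 42, 40.02 and 45.3 TPM in shCtrl and at 47.2, 43.7 and 44.8 TPM in shNFKBIZ, so that the groups overlapped, and its log2 fold change was 0.01 (edgeR adjusted P 0.838, SE 0.0455). ITGA1 fell from 6.36, 6.401 and 6.98 TPM to 4.91, 4.47 and 5.39 TPM, without overlap (log2 fold change -0.50, edgeR adjusted P 1.42e-06, SE 0.0671). PELO overlaps ITGA1 in the annotation, and the part of its reads in these counts was not tested. ITGA10 stayed under 1 TPM in every library, with overlapping groups and a log2 fold change of -0.92 (edgeR adjusted P 0.0391, SE 0.382). This call was lost without shCtrl replicate 2 (edgeR adjusted P 0.0558) or 3 (0.268), without shNFKBIZ replicate 1 (0.0708) or 3 (0.184), with library size alone (0.0627) and with DESeq2 (adjusted P 0.152). ITGA11 had 1 read in all.

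ITGA4, an α chain that binds fibronectin and VCAM1, fell slightly from 74.2, 70.2 and 79.7 TPM to 67.9, 63.7 and 67.1 TPM (log2 fold change -0.25, edgeR adjusted P 1.94e-05, SE 0.0418). The groups did not overlap, though they lay close together. Its partner for fibronectin, the β1 chain, is also that of ITGA3, ITGA5 and ITGA6. CERKL overlaps ITGA4 in the annotation.

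Among β chains, both abundant genes rose. ITGB1 (chromosome 10, 32887273 to 33005792), the common partner of most α chains found here, rose from 366.6, 347.8 and 393 TPM to 476.7, 476.8 and 486.3 TPM (log2 fold change 0.30, edgeR adjusted P 2.39e-07, SE 0.0361). ITGB5 (ENSG00000082781, chromosome 3, 124761948 to 124901418), a partner of the αV chain, rose from 42.6, 44.6 and 47.0 TPM to 67.8, 66.4 and 67.3 TPM. For both, all shNFKBIZ libraries were above all shCtrl libraries. The log2 fold change of ITGB5 was 0.51 (edgeR adjusted P 4.02e-10, SE 0.0408), while its partner ITGAV fell.

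The 3 integrins past the threshold were all β chains at low levels. ITGB8, another partner of αV and known for the activation of latent TGF-β, had 7, 8 and 8 exon reads in the shCtrl libraries against 51, 55 and 58, at 0.0743, 0.0821 and 0.0915 TPM against 0.575, 0.631 and 0.643 TPM. Its log2 fold change was 2.80 (edgeR adjusted P 3.45e-09, SE 0.258). Of its exon reads, 7.49% crossed an exon junction, compared with 13.5% to 46.5% in the other tested members, and ITGB8-AS1 overlaps it, so that reads of both genes cannot be separated. With spliced reads alone, ITGB8 had too few to be tested.

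ITGB3, the β chain of the vitronectin receptor αVβ3, had 49, 61 and 68 reads in shCtrl and 20, 19 and 27 in shNFKBIZ, without overlap (log2 fold change -1.44, edgeR adjusted P 6.73e-06, SE 0.222). Only 60.7% of its reads were unique. ENSG00000259753 and other genes overlap ITGB3 in the annotation, and their part in these counts was not tested. ITGB4, which pairs with ITGA6 in hemidesmosomes, had 14, 14 and 12 reads in shCtrl and 7, 3 and 7 in shNFKBIZ (log2 fold change -1.23, edgeR adjusted P 0.00868, SE 0.390). The fall of ITGB4 was not called without shNFKBIZ replicate 2 (-0.93, edgeR adjusted P 0.0565) or with DESeq2 (adjusted P 0.0825). GALK1 overlaps ITGB4.

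**Figure D2:**
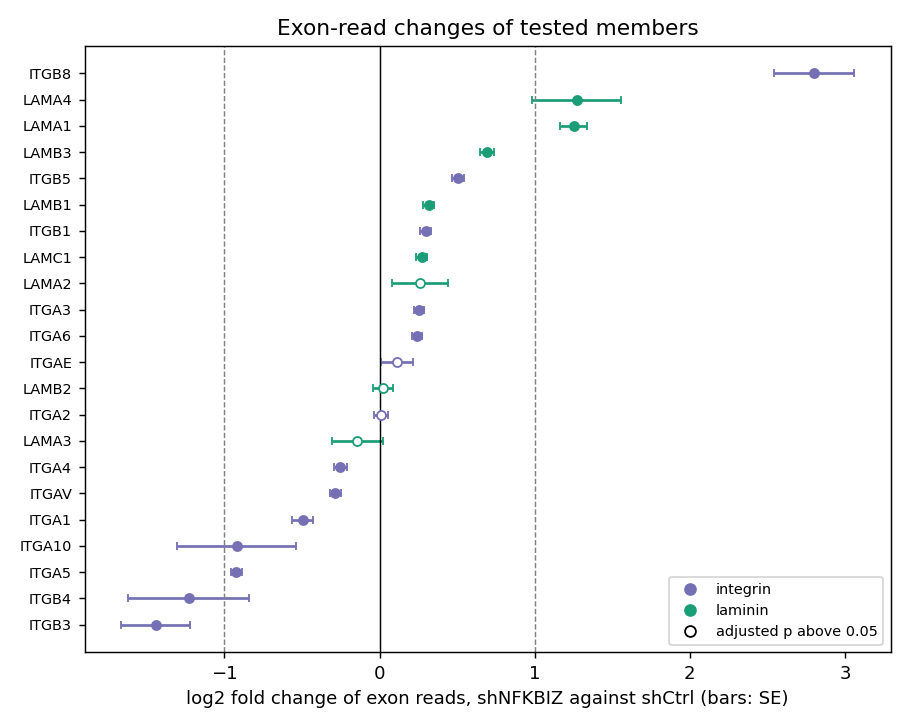
Log2 fold change of exon reads, shNFKBIZ against shCtrl, for the tested members reported here, with bars for the SE, dashed lines at a 2-fold change and open points where adjusted P was above 0.05. Laminins (green) lie at or to the right of 0 apart from LAMA3 at -0.14, and integrins (violet) lie on both sides, from ITGB3 at -1.44 to ITGB8 at 2.80.

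Leukocyte chains were near the limit of detection, apart from ITGAE, which was at 3.87, 3.82 and 4.54 TPM in shCtrl and 4.84, 4.87 and 4.25 TPM in shNFKBIZ, overlapping (log2 fold change 0.11, edgeR adjusted P 0.351, SE 0.102). HASPIN lies within ITGAE. ITGB7, the partner of ITGAE, had 19 reads over the shCtrl libraries and none in shNFKBIZ, which is at least 6.01-fold lower against a floor of 3 reads over the group. ITGB2, the common β chain of leukocyte integrins, had 20 and 8 summed reads, which made a ratio of 0.422 with exact 95% bounds of 0.161 and 0.999. The summed TPM of the leukocyte markers given above was also lower in shNFKBIZ, and the part of such cells in these counts was not tested. ITGAM had 6 and 10 summed reads and ITGAX 4 and 2, and no difference was detectable at this depth, while ITGAD, ITGAL and ITGA9 had at most 1 read per group. The epithelial β chain ITGB6 had 21 and 33 summed reads, which made a ratio of 1.66 with exact 95% bounds of 0.930 and 3.01.

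The abundant laminin chains were β and γ chains, and of these LAMB1, LAMB3 and LAMC1 rose. LAMB3 (ENSG00000196878, chromosome 1, 209614870 to 209652425), the β chain of laminin-332, rose from 77.2, 83.9 and 80.8 TPM to 132.3, 148.3 and 133.4 TPM. The groups did not overlap, and the log2 fold change was 0.69 (edgeR adjusted P 4.86e-12, SE 0.0428), or 1.62-fold. LAMC1 (chromosome 1, 183023420 to 183145592), the γ chain of most laminins, rose from 108.2, 112.5 and 112.6 TPM to 144.2, 141 and 140.4 TPM (log2 fold change 0.27, edgeR adjusted P 4.3e-07, SE 0.0341). LAMB1, the β chain of laminin-111, rose from 46.4, 47.7 and 52.1 TPM to 62.4, 67.5 and 62.8 TPM (log2 fold change 0.32, edgeR adjusted P 1.32e-07, SE 0.0368), and DLD overlaps it. Both rose by less than LAMB3 and, like it, without overlap.

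LAMB2 was at 22, 24 and 23.6 TPM in shCtrl and at 23.4, 28.6 and 22.8 TPM in shNFKBIZ, with overlap and a log2 fold change of 0.02 (edgeR adjusted P 0.789, SE 0.0669). For LAMB2 and LAMB3, shNFKBIZ replicate 2 stood above the other libraries. Among the genes not tested, LAMB4 had 11 and 33 summed reads, which made a ratio of 3.16 with exact 95% bounds of 1.56 and 6.94, and LAMC3 had none.

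Laminin α chains, one of which every trimer needs, were at low levels. LAMA1 (ENSG00000101680, chromosome 18, 6941742 to 7117797), the α chain of laminin-111, rose from 1.47, 1.66 and 1.75 TPM to 4.14, 4.02 and 4.11 TPM, with every shNFKBIZ library above every shCtrl library. The log2 fold change was 1.25 (edgeR adjusted P 2.64e-11, SE 0.0857), or 2.38-fold. LAMA4, a chain of vessel and muscle laminins, rose from 15, 14 and 9 reads to 35, 23 and 35 (log2 fold change 1.27, edgeR adjusted P 5.37e-04, SE 0.287). These were the only laminins past the threshold.

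LAMA3, the α chain of laminin-332, was at 0.699, 0.924 and 0.826 TPM in shCtrl and at 0.648, 0.864 and 0.835 TPM in shNFKBIZ, so that the groups overlapped while LAMB3, its β chain partner, rose (log2 fold change -0.14, edgeR adjusted P 0.453, SE 0.164). LAMA2, the α chain of muscle laminin, had 0.262, 0.294 and 0.276 TPM in shCtrl and 0.381, 0.342 and 0.331 TPM in shNFKBIZ. These did not overlap, but its log2 fold change of 0.26 did not pass the test (edgeR adjusted P 0.213, SE 0.180). LAMA5 had 8 and 5 summed reads. The summed TPM of 5 epithelial markers moved in the same direction as LAMB3, from 14.4 to 14.9 TPM in shCtrl to 23.1 to 27.0 TPM in shNFKBIZ. Of these markers KRT14 and KRT8 alone were above 1 TPM, and the markers were not compared one by one. The 5 fibroblast markers, of which COL1A1 was above 1 TPM, summed to 30.3 to 33.2 TPM in shCtrl and 7.88 to 10.4 TPM in shNFKBIZ. Their part in the laminin changes was not tested.

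The makeup of each chain pool was then described from TPM, without a test, since 3 against 3 libraries cannot give an exact permutation P below 0.1. ITGA6 held 47.6% ± 0.635 (SD, n = 3) of the integrin α chain TPM in shCtrl and 55.5% ± 0.757 in shNFKBIZ. ITGA3 went from 17.05% ± 0.195 to 20.1% ± 0.714, and ITGA5 from 17.8% ± 0.696 to 9.29% ± 0.271. ITGA5 and ITGA3 thus had similar shares in shCtrl, and ITGA3 had more than ITGA5 in every shNFKBIZ library. The level of ITGA5 relative to ITGA6 was 0.358, 0.394 and 0.373 in shCtrl and 0.165, 0.175 and 0.163 in shNFKBIZ. The shares of ITGA4 (7.85% to 6.49%) and ITGAV (4.004% to 3.24%) declined, and that of ITGA2 stayed close to its value (4.46% and 4.43%).

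TPM takes no TMM factor, which bears on all summed TPM here: with library size alone the median log2 fold change of all genes was 0.09. Summed α chain TPM was 951.6 ± 17.3 (SD, n = 3) in shCtrl and 1019.9 ± 11.4 in shNFKBIZ. Summed β chain TPM went from 416.3 ± 24.3 to 548.8 ± 5.95, most of it ITGB1 (88.7% ± 0.536 and 87.4% ± 0.129). The ratio of α to β chain TPM was 2.30, 2.38 and 2.19 in shCtrl and 1.89, 1.85 and 1.83 in shNFKBIZ, lower in each shNFKBIZ library than in any shCtrl library. ITGB5 held 10.8% ± 0.490 and 12.2% ± 0.160 of the β chain TPM. These ratios and shares depend on annotated exon lengths (14561 bases for ITGB1, 6679 for ITGA6), which may differ from those of the transcripts present. They do not give the number of transcripts, or of receptor pairs at the cell surface.

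**Figure D3:**
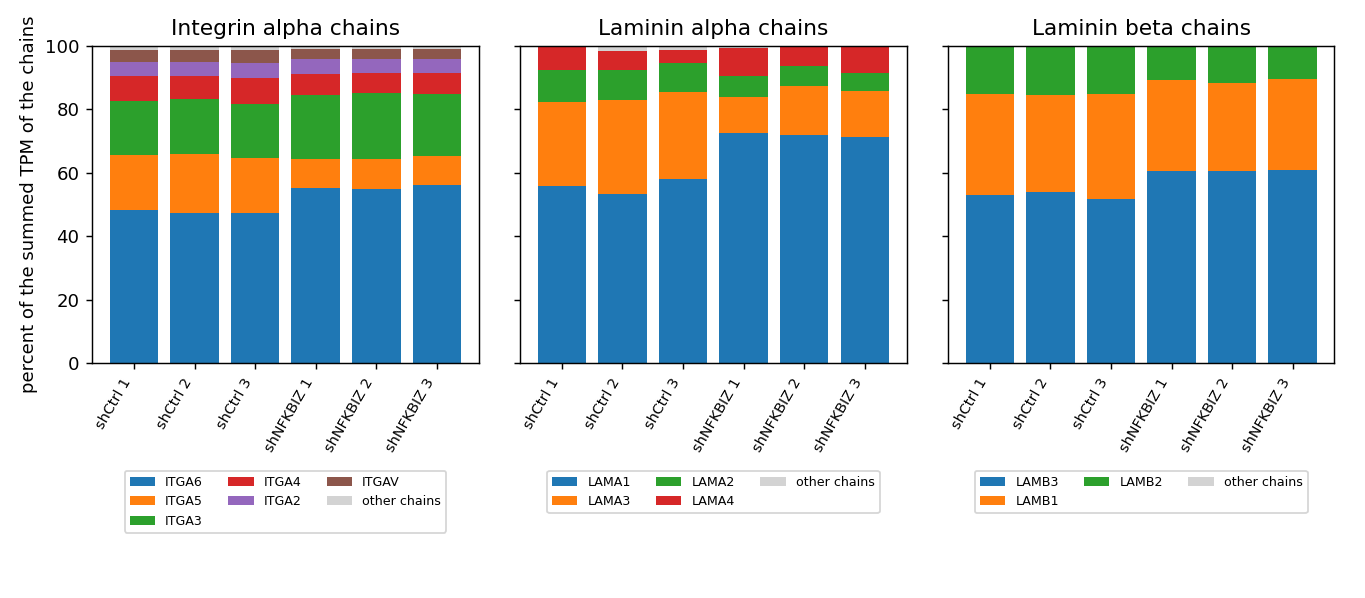
Percent of the summed TPM held by each gene among integrin α chains (left), laminin α chains (middle) and laminin β chains (right), with 1 stacked bar per library and genes under 2% in shCtrl grouped as other chains. ITGA5 holds 17.8% of the integrin α chains on average in shCtrl and 9.29% in shNFKBIZ, and the LAMA1 and LAMB3 parts are taller in the 3 shNFKBIZ bars than in the 3 shCtrl bars.

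In laminins, where shares and ratios depend on exon length in the same way, α chain TPM was low next to that of their partners. The summed laminin α chain TPM was 2.92 ± 0.254 (SD, n = 3) in shCtrl and 5.69 ± 0.0917 in shNFKBIZ, against 152.6 ± 6.02 and 227.4 ± 14.97 for β chains and 112.3 ± 2.46 and 144.1 ± 1.83 for γ chains. The β to α ratio was 55.3, 50.02 and 51.9 in shCtrl and 38.3, 43.8 and 38.0 in shNFKBIZ. LAMA1 made up 55.7% ± 2.35 of the α chains in shCtrl and 71.9% ± 0.639 in shNFKBIZ, while LAMA3 went from 27.9% ± 1.62 to 13.8% ± 2.13. Among β chains, LAMB3 went from 52.8% ± 1.16 to 60.7% ± 0.132 and LAMB2 from 15.2% ± 0.196 to 10.9% ± 0.680. The ratio of integrin to laminin TPM was 5.26, 4.89 and 5.17 in shCtrl and 4.27, 3.94 and 4.28 in shNFKBIZ, lower in each shNFKBIZ library than in any shCtrl library.

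Intron reads, which come largely from unspliced transcripts, gave another readout of the same libraries. They could be tested for 10 integrins and 7 laminins. Of the integrins, 3 rose and 4 fell by adjusted P, and ITGA1 fell past the threshold. Of the laminins, 4 rose by edgeR and 2 by DESeq2, 1 of them past the threshold by edgeR, and the number lower was 0 by both tools, also at an unadjusted P under 0.05. Of 12119 genes tested on intron reads, 19.3% rose and 19.5% fell by adjusted P, and 2.71% rose and 3.89% fell past the threshold. The median log2 fold change of intron reads was -0.10 in the integrins, 0.23 in the laminins and 0.00817 over all genes.

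Exon and intron changes of several integrins were unequal. The exon minus intron difference, tested after both changes had been seen, passed for 9 of 10 integrins, 6 with a more positive exon change and 3 with a more negative one, and for 1 of 7 laminins. Over 11025 genes, 13.1% had a more positive and 15.7% a more negative exon change by the same test. ITGA5 was among the more negative ones: its intron reads were 197, 233 and 193 in shCtrl and 178, 236 and 202 in shNFKBIZ. These overlapped, with a log2 fold change of -0.11 (edgeR adjusted P 0.397, SE 0.0953), while exon reads fell, and the difference of -0.80 (edgeR adjusted P 1.32e-11, SE 0.0950) was past the test.

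ITGA2 showed a difference of the same sign, since its intron reads rose from 82, 90 and 103 to 157, 152 and 135 (log2 fold change 0.60, edgeR adjusted P 1.30e-04) and its exon change did not pass the test (difference -0.58, edgeR adjusted P 7.17e-05, SE 0.121). For ITGA6 the intron rise of 0.45 exceeded the exon rise (difference -0.20, edgeR adjusted P 0.0129, SE 0.0636). This last call was lost when shCtrl replicate 1 (-0.19) or 2 (-0.19) or shNFKBIZ replicate 1 (-0.15) or 2 (-0.20) was left out (adjusted P 0.0535 to 0.121, edgeR).

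In the other direction, intron reads of ITGB1 fell (log2 fold change -0.23, edgeR adjusted P 8.62e-04) while its exon reads rose, a difference of 0.54 (edgeR adjusted P 6.98e-13, SE 0.0593). ITGB5 had 142, 124 and 121 intron reads in shCtrl and 126, 157 and 132 in shNFKBIZ, which overlapped (log2 fold change 0.01, edgeR adjusted P 0.958), and a difference of 0.51 (edgeR adjusted P 2.75e-04, SE 0.116). ITGAV and ITGA1 fell more in intron reads (-0.85 and -1.04) than in exon reads, with differences of 0.57 (edgeR adjusted P 7.08e-05) and 0.56 (edgeR adjusted P 3.72e-04). ITGA4 was of the same kind (difference 0.32, edgeR adjusted P 0.00177). ITGA3 had a difference of 0.36 (edgeR adjusted P 1.88e-06). Its exon reads rose, and its intron change did not pass the test (-0.10, edgeR adjusted P 0.197). Unannotated exons and overlapping genes also give intron reads, and their part in these differences was not tested.

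For 6 of 7 laminins the exon minus intron difference did not pass the test. Intron reads of LAMB3 rose from 338, 301 and 353 to 529, 639 and 520, without overlap. Their log2 fold change of 0.67 (edgeR adjusted P 7.95e-09, SE 0.0780) was close to that of exon reads (difference 0.03, edgeR adjusted P 0.794, SE 0.0756). LAMB1 had an intron change of 0.23 (edgeR adjusted P 0.00150) and a difference of 0.10 (edgeR adjusted P 0.249, SE 0.0644). LAMA1 introns had 10, 18 and 16 reads in shCtrl and 25, 39 and 19 in shNFKBIZ (log2 fold change 0.82, edgeR adjusted P 0.0239, SE 0.291). The LAMA1 difference of 0.44 had a wide SE and did not pass (edgeR adjusted P 0.283, SE 0.296). The LAMA1 intron call was lost without shCtrl replicate 1 (0.61, edgeR adjusted P 0.138) or shNFKBIZ replicate 2 (0.52, edgeR adjusted P 0.236) and with DESeq2 (adjusted P 0.137).

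Intron reads of LAMC1 did not pass the test (-0.02, edgeR adjusted P 0.894, SE 0.0995). Its difference of 0.30 (edgeR adjusted P 0.0137, SE 0.0994) was the only laminin difference that passed. That call was lost without shCtrl replicate 3 (0.25, edgeR adjusted P 0.0872) or shNFKBIZ replicate 2 (0.26, edgeR adjusted P 0.0631).

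**Figure D4:**
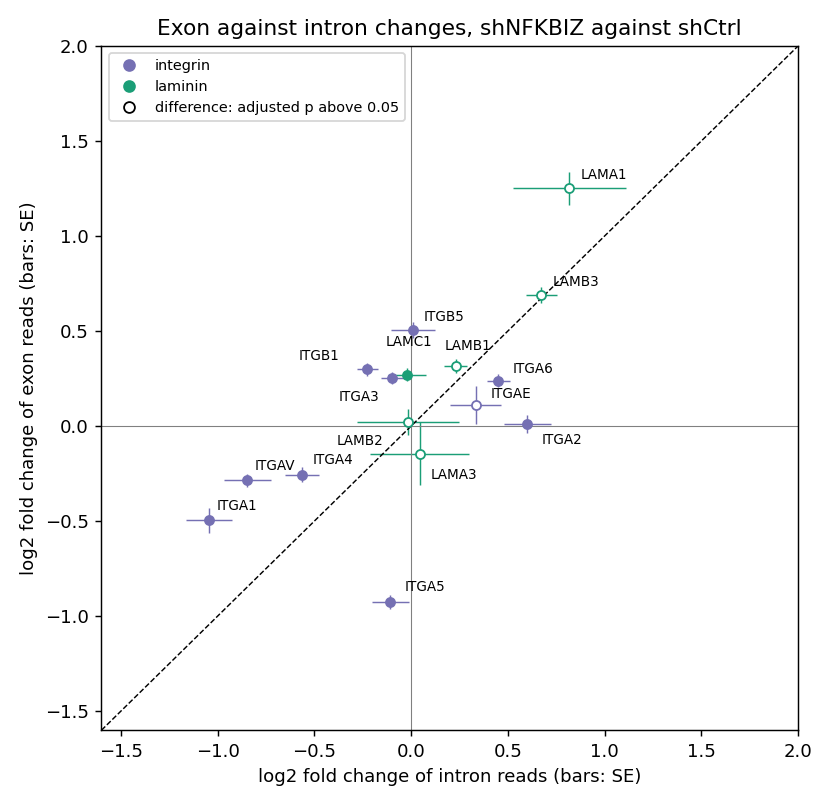
Log2 fold change of exon reads against that of intron reads, shNFKBIZ against shCtrl, for the members reported here that were tested in both, with bars for the SE, a dashed line where both are equal, and filled points where their difference had an adjusted P of at most 0.05. ITGA5 lies far below the line at an exon change of -0.92 and an intron change of -0.11, while LAMB3 lies on it.

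The proteins around these receptors were described from 3 lists. Of 45 genes of the adhesion complex, 40 were tested. By adjusted P 18 rose and 15 fell, where 32.5% of all genes tested rose and 32.8% fell, and past the threshold 1 rose and 3 fell, where these shares were 3.84% and 5.12%. Their median log2 fold change was 0.00639. TNS1, a tensin that ties integrins to actin, rose from 18.1 ± 0.351 to 42.7 ± 1.76 TPM (SD, n = 3; log2 fold change 1.16, edgeR adjusted P 6.13e-17, SE 0.0375). TES, a LIM protein of focal adhesions, fell from 77.0 ± 2.14 to 40.2 ± 1.26 TPM (-1.02, edgeR adjusted P 1.07e-14, SE 0.0444). CD9, a tetraspanin that joins laminin receptors in the membrane, also fell (-1.599, edgeR adjusted P 1.96e-07, SE 0.191) with fewer than 50 reads per library on average. Among the 7 genes that did not pass the test were the adaptors TLN1 (-0.02, edgeR adjusted P 0.697) and ILK (0.00103, edgeR adjusted P 0.981). Other adaptors passed in either direction, such as PARVA (0.55, edgeR adjusted P 3.73e-11) and VCL (-0.54, edgeR adjusted P 3.37e-12).

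Of 26 other integrin ligands, 14 were tested. By adjusted P 4 rose and 7 fell (32.5% and 32.8% of all genes), 3 fell past the threshold (5.12% of all genes), and the median was -0.25. CCN2 fell from 841.5 ± 19.2 to 266.1 ± 5.87 TPM (SD, n = 3; log2 fold change -1.74, edgeR adjusted P 4.08e-20, SE 0.0358) and CCN1 from 546.5 ± 8.11 to 186.4 ± 2.99 TPM (-1.63, edgeR adjusted P 3.22e-20, SE 0.0330). Both are secreted matricellular proteins. TGFBI, a matrix protein, fell from 96.4 ± 4.74 to 50.6 ± 1.16 TPM (-1.01, edgeR adjusted P 9.87e-16, SE 0.0382). FN1, the fibronectin that ITGA5 binds, rose from 179.1 ± 6.58 to 270.5 ± 14.6 TPM (0.51, edgeR adjusted P 4.98e-11, SE 0.0365), so that this receptor and its ligand moved in opposite directions, whereas TNC fell from 423.0 ± 13.9 to 263.8 ± 7.32 TPM (-0.76, edgeR adjusted P 1.11e-14, SE 0.0334).

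Of 19 genes of the laminin network and other laminin receptors, 14 were tested, 7 rose and 3 fell by adjusted P (32.5% and 32.8% of all genes), and the median was 0.07. Past the threshold, NTN4, a laminin-related netrin, was the single gene, with fewer than 50 reads per library on average (log2 fold change -1.87, edgeR adjusted P 1.70e-05, SE 0.309). HSPG2, the perlecan of basement membranes, rose (0.83, edgeR adjusted P 1.29e-08, SE 0.0587), as did the syndecans SDC1 (0.70, edgeR adjusted P 1.27e-13, SE 0.0351) and SDC4 (0.70, edgeR adjusted P 2.55e-12, SE 0.0417). DAG1, the dystroglycan receptor of laminin α chains, fell from 33.3 ± 1.44 to 19.5 ± 0.625 TPM (-0.86, edgeR adjusted P 1.37e-12, SE 0.0494). Receptors that share laminin as a ligand thus moved in both directions, with ITGA3 and ITGA6 up and DAG1 down.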

How the data were processed

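RNA of LOX-IMVI cells was sequenced in 6 libraries, and groups and replicate numbers came from the sample titles. Per the methods of the study, the authors mapped reads to hg38 with Ensembl genes in CLC Genomics Workbench under default settings, without use of strand, and the deposited tables hold whole-number counts of fragments per gene, as exon, intron, spliced and unique reads. A read with up to 10 hits was kept in the total counts. The sources name different sequencing providers. The deposited TPM columns use a decimal comma and were not read, and TPM were computed anew from exon length and total exon reads. No column of the authors' own comparisons was used.

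Total exon reads of all genes were fitted with edgeR 4.0.16 in R 4.3.3 (filterByExpr, TMM, glmQLFit with robust estimation, glmQLFTest, two-sided, Benjamini-Hochberg adjustment, no replicate block). SE is the size of the log2 fold change divided by the square root of F. The threshold was a change of 2-fold or more with adjusted P up to 0.05. The same fit was made on intron reads. Exon minus intron changes were tested as an interaction with library blocks, which was chosen after both changes had been seen. The scripts were tested on simulated data. The members and lists were chosen with earlier results of these data known. Of each pathway list, up to 4 genes per direction with the largest change past the threshold and a mean of at least 50 reads were named, and members had full statistics from a mean of 1 TPM in a group or past the threshold. Other genes named, and single values given for them, were chosen after the values were seen. Some genes that this rule would name, a member among them, are counted but not reported here.

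Same-numbered libraries did not deviate together (correlations 0.0207, 0.0561 and 0.0288), so the numbers were not treated as pairs. Alternatives included scaling by RLE factors or by library size alone, 10 counts in every library, no filter, DESeq2 1.42.0, a replicate block, leaving out each library, removal of a trend on exon length, other fold limits, and unique, spliced or all gene reads. Intervals on low counts are exact, at 95%, and cover counting error only. Total exon reads were 22264473 to 24624839 per library.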

Additional observations from a re-analysis of the deposited data

How the results depend on the processing

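Of the counts past the threshold, 3 integrins and 2 laminins in exon reads, 2 members in intron reads and 8 genes of the pathway lists were called, and a replicate block gave 3, 2, 2 and 8, with the intron rise of ITGAE the single member call it lost (0.33, edgeR adjusted P 0.057). With at least 10 counts in every library there were 1 integrin and 1 laminin in exon reads, because ITGB4, ITGB8 and LAMA4 have no value under that filter. In intron reads 1 member was past the threshold under it. Without a filter there were 5 integrins in exon reads. Spliced reads gave 0 integrins by edgeR, since ITGB3, ITGB4 and ITGB8 had too few, and 5 pathway genes. At an unadjusted P under 0.05, and by adjusted P alone, 4 of the 10 integrins still tested there were higher and 4 lower. Without a fold limit there were 12 integrins, 6 laminins, 11 members in intron reads and 54 pathway genes, and with 1.5-fold 5, 4, 6 and 21. In intron reads, library size alone, DESeq2 and removal of the length trend each gave 1, and the cause was not tested. Leaving out 1 library at a time gave 3 to 4 integrins, 2 to 3 laminins, 7 to 8 pathway genes and 1 to 3 members in intron reads, with 1 without shNFKBIZ replicate 1.

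No change that passed its test changed sign under an alternative, while some that did not pass, among them those of ITGA2 and LAMB2 in exon reads, did. Changes of exon reads under the alternatives were counted for the members, the pathway genes picked by the rule and NFKBIZ. Of these, 463 kept their side of the test and 8 lost it (ITGA10 and ITGB4). For members alone the counts were 208 and 12 in intron reads (among them ITGAE and LAMA1). They were 146 and 6 for the exon minus intron difference (ITGA6 and LAMC1). Adjusted P of the ITGAE intron change reached 0.242. Ratios of mean levels of ITGA3, ITGA5, ITGA6, ITGAV and LAMC1 moved by more than the spread between replicates from TPM to CPM with TMM factors per kilobase, and the shares given above did not with unique reads, but that of ITGB3 among β chains went from 0.341% to 0.211% in shCtrl. With library size alone the median log2 fold change of all genes was 0.09, and 668 of 1252 genes past the threshold were higher, against 532 of 1241. Depth limits the 15 members not tested.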
